A study of Mus musculus with 6 samples.

Results

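The 41 genes described here encode the machinery that folds secreted and membrane proteins in the endoplasmic reticulum (ER), the sensors and regulators of ER stress, and the components that bring proteins into the ER or remove those that misfold. They were chosen by name, as a list of the array's gene names, and kept if a probe was well above background on at least 1 array. All 41 of the 41 names had probes, 53 in all, among 31809 genes on the array, and the probe used for each gene was well above background on all 6 arrays. The array names Ero1l and Ero1lb are the genes now called Ero1a and Ero1b.

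RNA came from the mucosa of the glandular stomach, separated from the muscle layer, of C57BL/6J mice. A4gnt encodes the enzyme that adds a terminal, alpha-linked N-acetylglucosamine to the sugar chains of mucin from gastric glands. There was 1 A4gnt-null mouse and 1 wild-type mouse at each of 5, 10 and 50 weeks of age, each hybridised to 1 single-colour Agilent array, so that a genotype had 3 arrays and an age had 2. The sex of the mice and the allele that removed A4gnt are not given in the sources used here, and a genotype was sampled only through these 3 animals of different age. The question put by the design is how gene expression in the mucosa differs when A4gnt is absent, and whether that difference moves with age.

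Values are scaled signals, the processed signal of a probe divided by the 75th percentile of its array, and differences are log2 of null over wild type. Between 54.8% and 59.2% of spots were well above background on an array, no spot was saturated (0 on each array), and the 75th percentile lay between 252.8 and 402.8 units. The A4gnt probe gave processed signals of 165 to 325 units on the wild-type arrays, well above background, and of 2.11 to 2.94 units on the null arrays, where it was not. The 3 wild-type arrays lay on slide 1 and the 3 null arrays on slide 2, and the scan dates in the file headers split the same way. Slide, scan date and genotype therefore cannot be told apart. The depth of an array is not a count, and the number of arrays limits the precision. The 10 spots of the Creld2 probe had a log2 SD of 0.043 to 0.059 within an array.

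Proteins destined for secretion enter the ER through the Sec61 channel, lose their signal peptide, and fold with the help of the chaperones BiP (Hspa5) and Grp94 (Hsp90b1), the lectins calnexin and calreticulin, and the protein disulfide isomerases. When unfolded proteins accumulate, the sensors IRE1 (Ern1 and, in mucous epithelia, Ern2), PERK and ATF6 start the unfolded protein response: IRE1 splices Xbp1 mRNA, PERK raises translation of ATF4 and through it CHOP (Ddit3), and cleaved ATF6 enters the nucleus. Their targets include chaperones and the factors of ER-associated degradation (ERAD), which return misfolded proteins to the cytosol for the proteasome. Gastric chief cells, which secrete pepsinogen, and mucous cells, which secrete mucin, carry a large load of such proteins.

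A promoter feature found in some of the members is the ER stress response element, the sequence bound by ATF6 and XBP1 with the factor NF-Y. It was searched as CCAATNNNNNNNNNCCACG on both strands, from 250 bases before to 50 bases after each gene's annotated start, in RefSeq promoter sequences of GRCm38.p6. Listed promoters were found for 33 members, all but Atf6, Ern2, Hyou1, Manf, Derl1, Sec61a1, Sec11c and Ssr2. Of these, 10 held it (30.3%), against 37 of 27025 genes in the whole table (0.137%). The members were named as ER folding and stress genes, which include targets of these factors, so their share is not independent of that choice. The elements are shown with their flanks, for members whose genotype differences have opposite signs. The half-sites are the same in each because the search required them, so only the bases between them and the flanks can differ. Capitals mark the CCAAT and CCACG half-sites, and each is written 5′ to 3′ on the strand that reads CCAAT first.
Hspa5: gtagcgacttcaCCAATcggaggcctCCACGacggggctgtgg
Hsp90b1, nearer element: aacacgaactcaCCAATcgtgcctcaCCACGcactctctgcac
Hsp90b1, farther element: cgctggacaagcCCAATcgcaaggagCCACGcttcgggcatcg
Calr: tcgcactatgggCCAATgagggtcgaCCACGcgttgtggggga
Canx: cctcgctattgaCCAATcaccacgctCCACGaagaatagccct
Dnajc3: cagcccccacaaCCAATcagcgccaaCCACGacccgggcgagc
Creld2: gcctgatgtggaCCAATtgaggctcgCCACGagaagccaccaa
Pdia6: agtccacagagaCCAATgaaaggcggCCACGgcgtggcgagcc
Syvn1: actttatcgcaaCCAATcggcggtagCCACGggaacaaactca
Ero1lb: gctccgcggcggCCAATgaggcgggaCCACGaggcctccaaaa
Derl3: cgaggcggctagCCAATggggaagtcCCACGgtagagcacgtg

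The first base of the element nearest the start lay between 44 bases (Syvn1) and 201 bases (Ero1lb) before it. In Calr, Creld2, Derl3, Ero1lb and the nearer element of Hsp90b1 the sequence shown is on the strand opposite to the gene. The related element ATTGGNCCACG was found in 2 of the 33 members, Herpud1 and Dnajb11 (6.06%), against 0.0444% of all genes. In Herpud1 it lay 52 bases before the start, on chr8:94386365-94386399 with its flanks, in the sequence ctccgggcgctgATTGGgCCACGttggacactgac, where capitals mark the half-sites. The motif TGACGTGG was in 0 of the 33 windows and in 0.714% of all genes. No member's window held more than 1 of these kinds of motif. The match describes letters in a window, and no binding was measured here.

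The promoters of Hspa5 and Derl3 are given whole, since these are the main chaperone of the ER and the member that differed most between the genotypes. The Hspa5 window is chr2:34771840-34772089 and the Derl3 window chr10:75893148-75893397, both on the plus strand of GRCm38.p6, written along the gene up to the base before its start. In Derl3 the element therefore reads from its CCACG end, as CGTGG and then ATTGG.
Hspa5 promoter: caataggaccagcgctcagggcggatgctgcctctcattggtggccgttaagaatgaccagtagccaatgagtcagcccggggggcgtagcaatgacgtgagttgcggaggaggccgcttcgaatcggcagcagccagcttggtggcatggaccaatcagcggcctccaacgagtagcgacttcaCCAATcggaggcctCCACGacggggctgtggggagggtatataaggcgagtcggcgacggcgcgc
Derl3 promoter: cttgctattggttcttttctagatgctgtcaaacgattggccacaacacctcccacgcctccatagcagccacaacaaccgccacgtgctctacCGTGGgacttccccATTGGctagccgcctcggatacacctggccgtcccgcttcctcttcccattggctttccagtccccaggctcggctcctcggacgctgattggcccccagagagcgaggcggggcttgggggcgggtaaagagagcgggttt

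The members with the same element lay on both sides of 0. Over the 3 ages, 6 of the 10 were higher and 4 lower in the null mucosa, with a median of 0.076 and a range from -1.63 (Derl3) to 0.29 (Canx). The 23 members whose listed promoter lacked it had a median of -0.017. Derl3 and Ero1lb were the lowest of the 10, and Canx, Pdia6 and Calr the highest. The member with the highest difference of all, Pdia5 (0.63), had a listed promoter without the element.

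**Figure D1:**
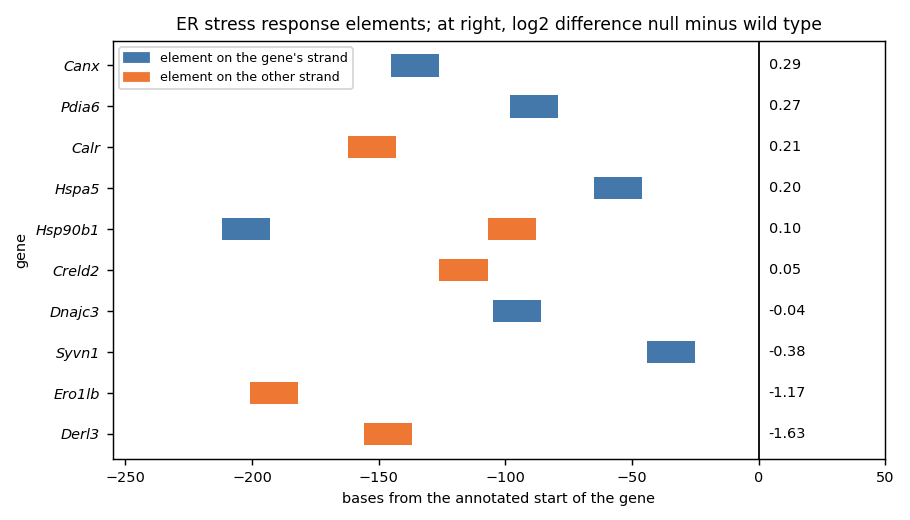
Position of each ER stress response element, in bases from the annotated start of the gene, for the 10 members that hold it, with colour for the strand and the log2 difference of null minus wild type at the right. Elements lie between positions -212 and -26, and the differences run from -1.63 (Derl3) to 0.29 (Canx).

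Averaged over the 3 ages, the 41 genes lay on both sides of 0, and the side differed by role. The translocation genes and, within disulfide formation, the isomerases were mostly higher in the null mucosa, and the ERAD and sensor genes mostly lower. Of all tested genes 47.3% were higher and 52.7% lower. The largest differences were those of Derl3, an ERAD gene (3.09-fold lower), and Ero1lb, an oxidase of disulfide formation (2.25-fold lower). No member passed the test: limma with age as a factor called 0 of 41 genes, and 0 of 17895 tested genes (0.0%), at an adjusted p of 0.05, and the smallest adjusted p of a member was 0.106 (Derl3). At an unadjusted p under 0.05, 6 members were higher, where 11.0% of all genes were, and 5 lower, where 12.6% were. Without the 5-, 10- or 50-week pair of mice the higher count was 3, 1 and 1, and the lower count 6, 3 and 3. The split also moved with the scaling between arrays, to 3 higher and 8 lower after quantile normalization and to 10 higher and 5 lower after scaling by the median, which moved the median of all genes to 0.10.

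The median difference of the members was 0.049, beside -0.025 over all tested genes, with 21 members higher and 20 lower (47.3% and 52.7% of all genes). It was -0.076 without the 5-week pair and -0.018 after quantile normalization. The same sign was seen at all 3 ages for 15 members that were higher and 12 that were lower, where 26.1% of all genes were higher at every age and 26.1% lower. By the probe used for each gene, the 3 null arrays lay entirely above the 3 wild-type arrays for 6 members, where 12.5% of all genes did so. These were Atf4, Canx, Pdia3, Sec61b, Sec11c and Ssr3. For Atf4, Sec61b and Ssr3 the groups overlapped on another probe of the gene. The null arrays lay entirely below for 8 members, Atf6, Dnajb9, Ero1l, Ero1lb, Edem1, Sel1l, Syvn1 and Derl3, where 11.3% of all genes did so. In whole tissue, fewer cells of a type and less RNA per cell cannot be told apart.

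**Figure D2:**
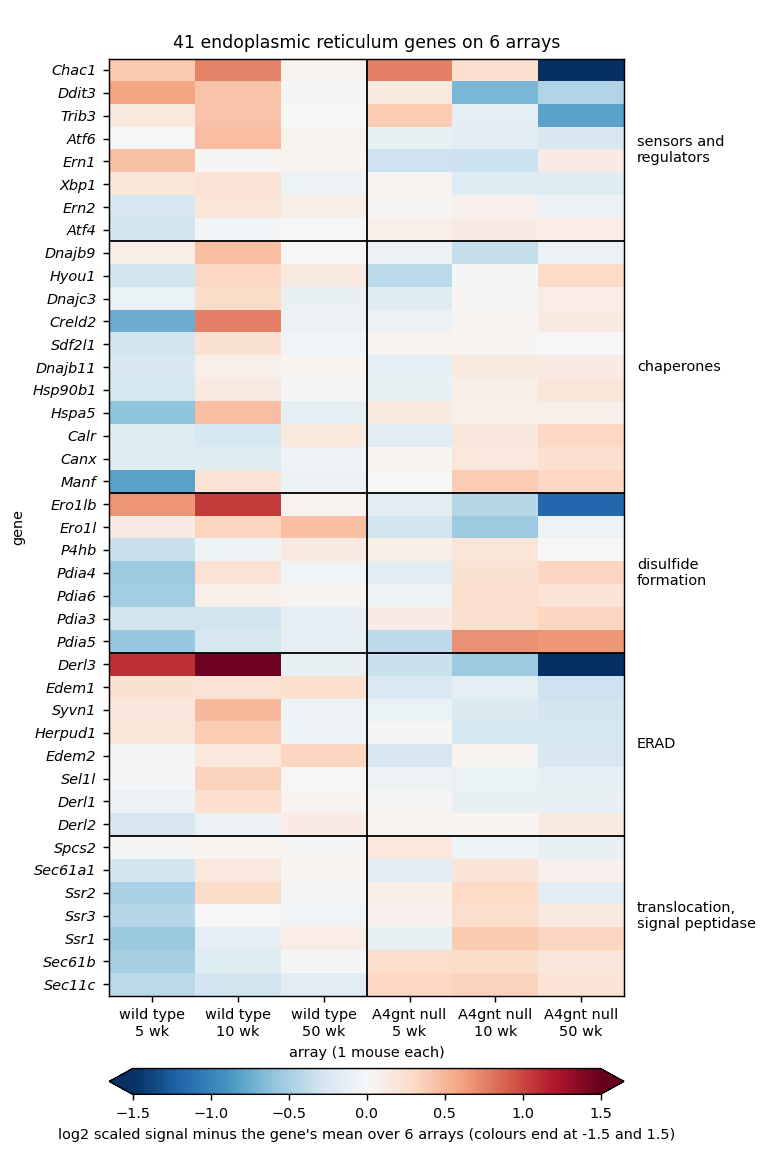
Heat map of the 41 genes on 6 arrays (1 mouse each), as log2 scaled signal minus the gene's mean over the arrays, grouped by role. Derl3 and Ero1lb stand out as high in wild-type mice of 5 and 10 weeks and low on the null array of 50 weeks, while the disulfide isomerases and translocation genes are mostly lowest on the wild-type array of 5 weeks.

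Averaged over the ages, 7 of 8 genes of the sensor and regulator group were lower in the null mucosa, where 52.7% of all genes were. The median difference of the 8 was -0.34. The 8 include Chac1, which encodes an enzyme, and the 7 include Ern2, at -0.0051. Only 3 of the 8 were lower at all 3 ages, where 26.1% of all genes were. At 5 weeks 4 were higher and 4 lower, with a median of 0.058. The median over the ages was -0.22 without the 50-week pair and -0.21 after scaling by the median. Ddit3, which encodes the stress transcription factor CHOP, had scaled signals of 0.364, 0.325 and 0.240 in wild-type mice of 5, 10 and 50 weeks, and of 0.267, 0.150 and 0.178 in null mice. Each null mouse was below the wild-type mouse of its age, but the null array of 5 weeks was above the wild-type array of 50 weeks, so the groups overlapped. The difference was -0.67 ± 0.19 (moderated SE of limma, n = 3 pairs), or 1.59-fold lower, with a limma adjusted p of 0.175. Xbp1, the transcription factor whose mRNA IRE1 splices, had 48.8, 50.1 and 40.9 in wild-type mice and 44.3, 37.5 and 37.9 in null mice. Its difference of -0.22 ± 0.13 (adjusted p = 0.347) was the same in sign at every age, with overlapping groups. The array reads total Xbp1 mRNA and does not separate the spliced form.

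Atf6, the sensor that is cut in the Golgi, read 0.199, 0.273 and 0.205 in wild-type mice and 0.184, 0.176 and 0.168 in null mice. All 3 null arrays were below all 3 wild-type arrays, and the difference was -0.35 ± 0.15 with a limma adjusted p of 0.258. Ern1, the ubiquitous IRE1, had 1.37, 1.02 and 1.04 in wild-type mice and 0.815, 0.809 and 1.09 in null mice. Its difference was -0.75 at 5 weeks, -0.33 at 10 weeks and 0.072 at 50 weeks, and the groups overlapped. Ern2, the IRE1 of mucous epithelia, differed by -0.0051 ± 0.15, with a 95% interval of -0.41 to 0.40, and its difference was 0.12 after scaling by the median.

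Atf4, the transcription factor translated when PERK is active, was the 1 regulator that was higher over the 3 ages. It read 0.782, 0.928 and 0.961 in wild-type mice and 1.01, 1.04 and 1.03 in null mice, so that every null array was above every wild-type array. The difference was 0.21 ± 0.12 (limma adjusted p = 0.347). A brighter Atf4 probe was left out because its spot was marked as an outlier on the null array of 50 weeks, and its differences at 5 and 10 weeks were 0.18 and 0.0017.

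Chac1, a glutathione-degrading enzyme induced through ATF4, had the widest spread of genotype differences of any member. Its scaled signal was 1.49, 1.90 and 1.18 in wild-type mice of 5, 10 and 50 weeks and 1.92, 1.34 and 0.250 in null mice. The null mouse of 50 weeks was lower than every other mouse, and the null mouse of 5 weeks and the wild-type mouse of 10 weeks were the highest. The difference went from 0.36 at 5 weeks through -0.51 at 10 weeks to -2.23 at 50 weeks. Over the 3 ages it was -0.79 ± 0.54, and -0.071 without the 50-week pair. Trib3, a pseudokinase induced by CHOP, ran the same way, at 0.23, -0.57 and -0.80. Its signals were 0.639, 0.772 and 0.574 in wild-type mice and 0.749, 0.520 and 0.331 in null mice.

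The ER chaperones were the group nearest to 0, with a median difference of 0.089 and 8 of 11 genes higher in the null mucosa. The median was -0.018 without the 5-week pair, 0.18 without the 10-week pair, 0.013 after quantile normalization and 0.21 after scaling by the median. Hspa5, the main chaperone of the ER lumen and the usual gauge of ER stress, had scaled signals of 58.3, 121 and 80.0 in wild-type mice and 97.8, 93.6 and 93.1 in null mice. The null mice lay close together and inside the wild-type range, which ran from its lowest value at 5 weeks to its highest at 10 weeks. The difference was 0.75 at 5 weeks, -0.37 at 10 weeks and 0.22 at 50 weeks, and 0.20 over the ages with a 95% interval of -0.49 to 0.88. It was -0.076 without the 5-week pair.

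Creld2, an ER-resident protein induced by stress, followed the same course with wider swings, at 11.2, 31.4 and 17.6 in wild-type mice and 17.5, 19.1 and 20.4 in null mice. Its differences were 0.65, -0.72 and 0.22. Hsp90b1, the ER form of Hsp90, was 36.8, 48.5 and 43.7 in wild-type mice and 41.1, 46.9 and 50.3 in null mice, a difference of 0.10 ± 0.12. Sdf2l1, Hyou1 and Dnajc3, which work with BiP, differed by 0.063, -0.096 and -0.039. For these 6 genes the wild-type mouse of 10 weeks had the highest signal of the wild-type mice and the difference at that age was below 0.

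Manf, a secreted ER stress protein, was the chaperone-group gene with the largest difference. It had 3.95, 7.92 and 6.49 in wild-type mice and 6.87, 8.94 and 8.57 in null mice. The null mouse was higher at every age, by 0.46 ± 0.17, with a limma adjusted p of 0.211. Canx, the membrane-bound lectin calnexin, read 14.5, 14.4 and 15.7 in wild-type mice and 16.7, 18.3 and 19.3 in null mice, without overlap. The difference was 0.29 ± 0.11 (limma adjusted p = 0.227). Its soluble relative Calr differed by 0.21 ± 0.14 and Dnajb11, a BiP cochaperone, by 0.089 ± 0.11. Dnajb9, another cochaperone and a target of XBP1, went the other way. It had 1.41, 1.80 and 1.31 in wild-type mice and 1.24, 1.03 and 1.24 in null mice, a difference of -0.36 ± 0.19, and its second probe differed by -0.56.

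Disulfide formation held a split between the isomerases and the oxidases. All 5 protein disulfide isomerase genes among the members were higher in the null mucosa, with a median of 0.27, where 47.3% of all genes were higher. Both Ero1 oxidases, which recharge the isomerases with oxidising equivalents, were lower, where 52.7% of all genes were. The 7 genes had been set as 1 role, and the split within it was not set in advance. Outside the members, the isomerase Pdia2 was lower (-1.23) and Agr2 higher (0.43). The median of all 7 genes was 0.25, and 0.14 after quantile normalization and 0.38 after scaling by the median. Pdia3, which acts on glycoproteins with calnexin and calreticulin, read 7.05, 6.93 and 7.84 in wild-type mice and 9.26, 10.1 and 10.6 in null mice. Every null array was above every wild-type array, and the difference was 0.46 ± 0.11 (limma adjusted p = 0.161). Pdia5 was 0.653, 0.821 and 0.875 in wild-type mice and 0.735, 1.55 and 1.52 in null mice. Its difference was small at 5 weeks, 0.17, and larger at 10 weeks, 0.92, and 50 weeks, 0.80, and averaged 0.63 ± 0.19, or 1.54-fold higher (limma adjusted p = 0.185).

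Pdia6 and Pdia4 were also higher at every age, by 0.27 ± 0.12 and 0.25 ± 0.14 over the 3 ages. P4hb, the founding isomerase, had differences of 0.43, 0.24 and -0.15 at the 3 ages. Ero1lb, the oxidase known from pancreas and stomach, had 0.765, 1.002 and 0.502 in wild-type mice and 0.435, 0.362 and 0.215 in null mice. Every null mouse lay below every wild-type mouse. The difference was -1.17 ± 0.17, or 2.25-fold lower, with a limma adjusted p of 0.126. Ero1l, the oxidase induced by hypoxia, read 0.491, 0.567 and 0.620 in wild-type mice and 0.370, 0.311 and 0.430 in null mice. The groups did not overlap, and the difference was -0.60 ± 0.14, or 1.52-fold lower (limma adjusted p = 0.158).

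**Figure D3:**
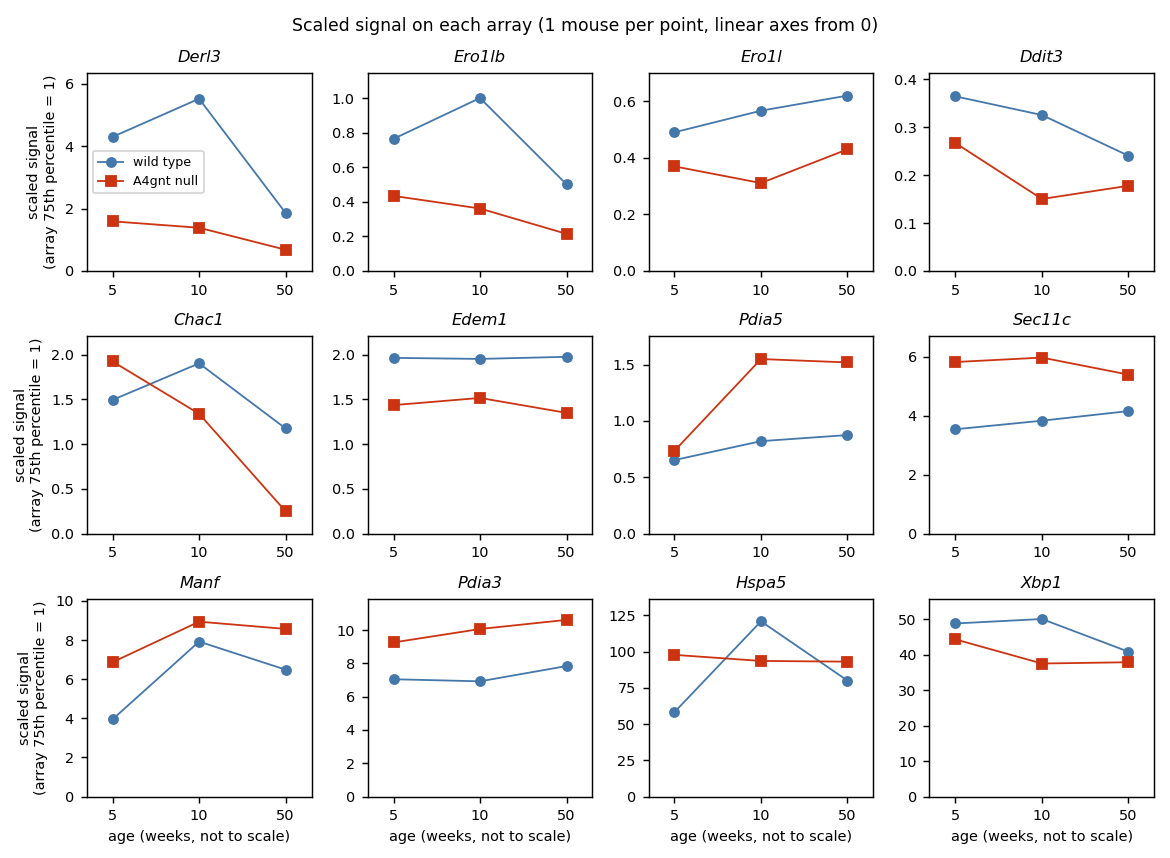
Scaled signal (array 75th percentile = 1) of 12 members on each array, 1 mouse per point, against age in weeks, with lines joining mice of a genotype and linear axes from 0. The null line runs below the wild-type line throughout for Derl3, Ero1lb, Ero1l, Ddit3, Edem1 and Xbp1, above it for Pdia5, Sec11c, Manf and Pdia3, and crosses it for Chac1 and Hspa5.

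The ERAD genes were lower in the null mucosa for 7 of 8 members, with a median of -0.32. The median was -0.21 without the 10-week pair and -0.20 after scaling by the median. In 4 of the 8 every null array was below every wild-type array, where 11.3% of all genes were. Derl3 led them and the whole set. It encodes a derlin, a membrane protein of the channel through which misfolded glycoproteins leave the ER, and its probe lies at chr10:75358503-75358562 of mm9, on the plus strand. Its scaled signals were 4.30, 5.52 and 1.86 in wild-type mice and 1.59, 1.38 and 0.680 in null mice. The wild-type mouse of 50 weeks, the lowest of its genotype, was still above the highest null mouse. The differences were -1.43, -1.99 and -1.45 at the 3 ages, and -1.63 ± 0.17 over them, or 3.09-fold lower, with a 95% interval of -2.09 to -1.17. The limma adjusted p was 0.106, and 0.0334 after a different background correction (normexp), where the difference was -1.44.

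Its paralogs did not share this difference. Derl2 differed by 0.14 ± 0.12 and Derl1 by -0.14 ± 0.14, with other probes of the same genes between -0.045 and 0.21 for Derl2 and at -0.00050 for Derl1. Edem1, a lectin that directs misfolded glycoproteins to degradation, had steady values within each genotype. It read 1.96, 1.95 and 1.98 in wild-type mice and 1.44, 1.52 and 1.35 in null mice, a gap wider than the spread within either genotype. The difference was -0.46 ± 0.11, or 1.37-fold lower, with a limma adjusted p of 0.164. Edem2, its relative, differed by -0.31 ± 0.14.

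The ubiquitin ligase of ERAD, Hrd1, is encoded by Syvn1 and its partner by Sel1l. Syvn1 read 19.1, 23.7 and 16.0 in wild-type mice and 15.9, 14.8 and 14.03 in null mice, without overlap but with a gap of little width. Its difference was -0.38 ± 0.15 (limma adjusted p = 0.231), and that of Sel1l was -0.21 ± 0.14. Herpud1, the stress-induced protein that gathers the Hrd1 complex, differed by -0.34 ± 0.15. For Syvn1, Sel1l and Herpud1 the largest difference was at 10 weeks, at -0.68, -0.45 and -0.64.

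The genes for entry into the ER were higher in the null mucosa for 6 of 7 members, with a median of 0.32, and 5 of them at every age (26.1% of all genes). The median was 0.16 when all probes of a gene were averaged, where other probes of Sec61b, Ssr1 and Spcs2 gave lower differences. Sec11c, a catalytic subunit of the signal peptidase, had 3.54, 3.83 and 4.15 in wild-type mice and 5.82, 5.97 and 5.39 in null mice. The groups did not overlap, and the difference was 0.58 ± 0.13, or 1.49-fold higher (limma adjusted p = 0.149). Sec61b, a small subunit of the translocation channel, read 34.9, 43.5 and 48.3 in wild-type mice and 58.9, 59.3 and 55.3 in null mice. It was higher without overlap, by 0.47 ± 0.16 (limma adjusted p = 0.195). A dimmer Sec61b probe had the same sign only at 5 weeks, with differences of 0.54, -0.067 and -0.19.

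The subunits of the translocon-associated protein complex varied. Ssr1 was 0.40 ± 0.13 higher by its brightest probe, while its other probes gave -0.095 and 0.12. Ssr3 was 0.32 ± 0.13 higher and 0.37 by its second probe. Ssr2 had differences of 0.59, 0.023 and -0.12 at the 3 ages. Sec61a1, the pore of the channel, differed by 0.057 ± 0.11, with a 95% interval of -0.24 to 0.36. Spcs2, a signal peptidase subunit, differed by -0.017 ± 0.13, and by -0.32 by its second probe.

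**Figure D4:**
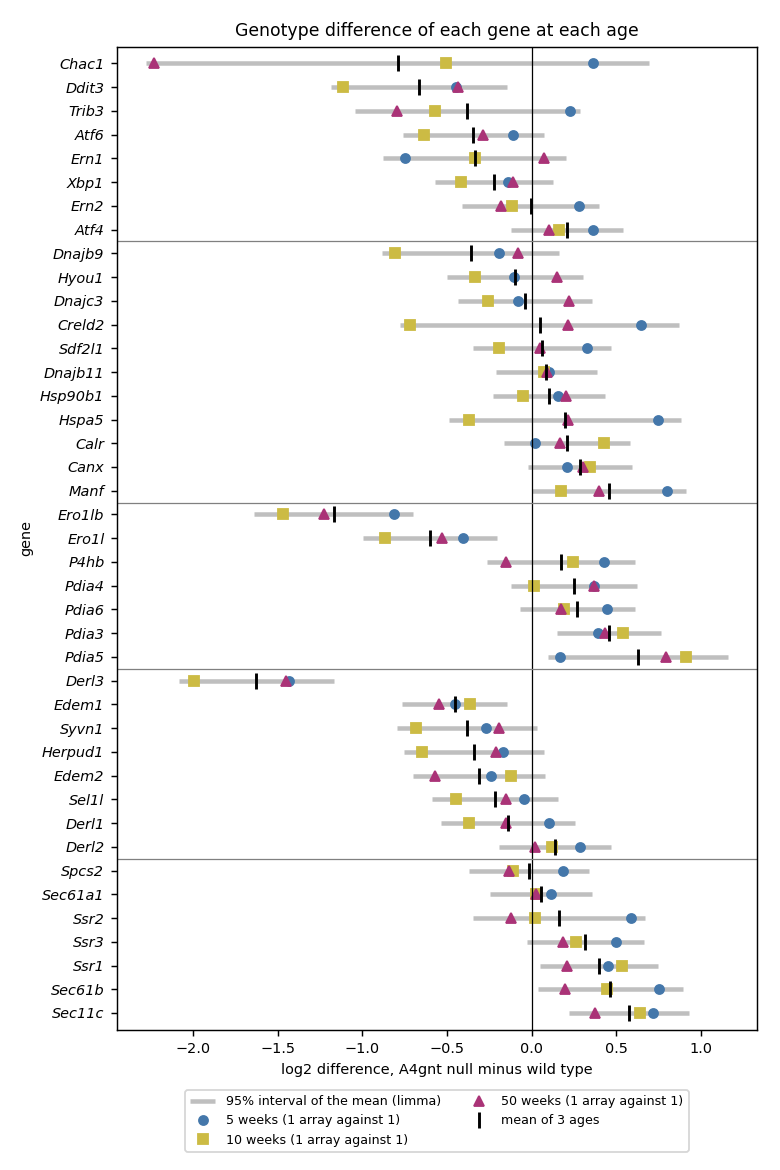
Log2 difference of null minus wild type for each of the 41 genes, with a point for each age (1 array against 1), a black tick for the mean of the 3 ages and a grey bar for its 95% interval from limma, grouped by role. Derl3 and Ero1lb lie farthest to the left at each age apart from Chac1 at 50 weeks (-2.23), and the 10-week point is the lowest for 5 of the 8 ERAD genes.

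At each age 1 mouse stood against 1, so the differences there have no replicate check. At 5 weeks, 6 members were at least 1.5-fold higher in the null mouse, Hspa5, Creld2, Manf, Sec61b, Sec11c and Ssr2, where 10.6% of all genes were. At that age 3 were at least 1.5-fold lower, Ern1, Ero1lb and Derl3, where 12.8% of all genes were. At 10 weeks only Pdia5 and Sec11c were that much higher, 2 members beside 10.5% of all genes. The lower members at 10 weeks were 9, Atf6, Ddit3, Dnajb9, Creld2, Ero1l, Ero1lb, Herpud1, Syvn1 and Derl3, beside 13.0% of all genes. At 50 weeks, Pdia5 was the 1 member higher (5.36% of all genes), and Trib3, Chac1, Ero1lb and Derl3 were the 4 lower (11.3%).

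No member was 2-fold higher in the null mouse at any age, where 3.54%, 4.29% and 1.99% of all genes were at 5, 10 and 50 weeks. The members 2-fold lower were Derl3 at 5 weeks, Derl3, Ero1lb and Ddit3 at 10 weeks, and Derl3, Ero1lb and Chac1 at 50 weeks, beside 4.87%, 5.27% and 4.32% of all genes. The median of the members was 0.17, -0.12 and 0.028 at the 3 ages. The wild-type mouse of 5 weeks had the lowest mean over the members, at -0.13 relative to each gene's mean, and the wild-type mouse of 10 weeks the highest, at 0.22, with the null mice between -0.095 and 0.016.

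Whether the genotype difference moved with age was tested as a trend on the logarithm of age. It called 0 of 41 members and 0 of 17895 genes (0.0%) at an adjusted p of 0.05. At an unadjusted p under 0.05 there was 1 member, Chac1, where 2.84% of all genes passed. The Chac1 difference moved by -0.77 ± 0.16 log2 units per doubling of age (limma unadjusted p = 0.00673, adjusted p = 0.9996), over 3 ages with 1 pair of mice each.

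Between 5 and 50 weeks, averaged over the genotypes, 28 members were higher and 13 lower (46.2% and 53.8% of all genes), with a median of 0.16 where all tested genes had a median of -0.036. Limma called 0 members and 2 of all genes (0.0112%). At an unadjusted p under 0.05, 5 members were higher with age, where 7.45% of all genes were, and 2 lower, where 11.7% were. The lower members were Derl3, at -1.22 ± 0.21 (limma adjusted p = 0.217), and Ero1lb, at -0.81 ± 0.21 (limma adjusted p = 0.223). Derl3 was lowest at 50 weeks within each genotype, and so was Ero1lb. Chac1 had the largest age difference, -1.64 ± 0.66, with its lowest value in the null mouse of 50 weeks, and Trib3 differed by -0.67 ± 0.30. Pdia5 was 0.73 ± 0.24 higher at 50 weeks (limma adjusted p = 0.244), and Ssr1, Hyou1, Pdia4 and Pdia6 were 0.55, 0.55, 0.50 and 0.42 higher.

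The other genes of these pathways were read from lists of 78 genes, 77 of them well above background on every array, of which 0 passed the limma test for genotype (0.0% of all genes). There were 53 higher and 25 lower, with a median of 0.073, and at an unadjusted p under 0.05 there were 6 higher and 3 lower, beside 11.0% and 12.6% of all genes. The 18 further stress response genes had a median of -0.15, with 13 lower, and of -0.095 without the 10-week pair and -0.028 after scaling by the median. Bhlha15 (Mist1), the transcription factor that matures the secretory apparatus of chief and acinar cells, read 4.50, 3.97 and 2.54 in wild-type mice and 1.92, 1.83 and 1.28 in null mice. The groups did not overlap, and the difference was -1.11 ± 0.12 (limma adjusted p = 0.109). Nupr1 and Ppp1r15a, both targets of the PERK branch, differed by -0.81 ± 0.36 and -0.53 ± 0.23, each with its largest gap at 10 weeks, at -1.73 and -1.12. Creb3l4, a relative of ATF6, was 0.51 ± 0.17 higher. The PERK gene itself, Eif2ak3, differed by -0.25 ± 0.15.

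Among 19 further folding genes 16 were higher, with a median of 0.12, and of 0.054 without the 10-week pair and 0.053 with the mean of all probes. Pdia2, the isomerase typical of pancreas and chief cells, went against its relatives in the main list, with 214, 246 and 150 in wild-type mice and 155, 80.6 and 48.7 in null mice. The difference was -1.23 ± 0.29 (limma adjusted p = 0.153). Dnajc10, an ER reductase, was 0.58 ± 0.15 higher, and Agr2, an isomerase required for mucin production, 0.43 ± 0.22 higher. Fkbp14, a collagen-folding prolyl isomerase, differed by -0.44 ± 0.12. Of the 16 further translocation and glycan-transfer genes 14 were higher, with a median of 0.14. Srprb, a subunit of the signal recognition particle receptor, led them at 0.70 ± 0.18 without overlap, followed by Sec61g at 0.51 ± 0.25, Spcs1 at 0.39 ± 0.14 and Ddost at 0.35 ± 0.13. The 13 further ERAD genes had a median of 0.024, with 8 higher and 5 lower, and the median was -0.055 without the 5-week pair and -0.018 after quantile normalization. The largest differences there were those of the lectins Erlec1 (-0.52 ± 0.25) and Os9 (-0.31 ± 0.11), the ligase Rnf5 (-0.29 ± 0.22) and the ubiquitin-conjugating enzyme Ube2j1 (0.26 ± 0.12).

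Cell type markers were read beside these genes. The chief cell list, with 9 of 12 names tested, had a median of -0.85, with 7 of 9 lower, and its summed scaled signal was 1661 to 2183 on the wild-type arrays and 728 to 1578 on the null arrays. It holds Bhlha15 and Pdia2. Its leading genes by difference were Gper (-1.53 ± 0.20), Pdia2, Bhlha15 and Gif (-0.998 ± 0.29), and Lipf was not above background on any array. The 2 higher genes were Mfge8 (0.18 ± 0.14) and Pga5 (0.40 ± 0.27). Pga5 differed by 0.91, 0.57 and -0.27 at 5, 10 and 50 weeks. Most of each sum was Pgc and Chia, with 990 and 503 of 1974 in the wild-type mouse of 5 weeks. Pgc differed by -0.85 ± 0.20 and Chia by -0.55 ± 0.26. At 5, 10 and 50 weeks the Derl3 difference was -1.43, -1.99 and -1.45, and the median of the chief cell list -0.29, -0.87 and -1.24. The part of chief cells in the Derl3 and Ero1lb differences was not tested.

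Acinar cells of the pancreas are also known to express Derl3 and Ero1lb, and their genes were read on these arrays. Their summed scaled signal over 17 genes was 159 to 630 on the wild-type arrays and 130 to 542 on the null arrays. Single genes gave much of a sum, as Amy2a5 with 330 of 630 in the wild-type mouse of 5 weeks. In the null mouse of 10 weeks Zg16 gave 108 of 143. Over the ages 14 of the 17 were lower, and their median difference was -1.17 at 5 weeks, -0.043 at 10 weeks and -3.28 at 50 weeks. At 10 weeks 8 of the 17 were higher and 9 lower in the null mouse, but only 10 of the 17 were well above background on all 6 arrays. The 10-week median was the value of Pnlip, 0.0128 in the wild-type and 0.0124 in the null mouse, which passed on 4 arrays. Of the 10, Amy2a5 read 87.6 in the wild-type and 12.5 in the null mouse at that age (-2.81), and Sycn 4.35 and 1.24 (-1.81). Prss2 (-1.64), Try4 (-1.46), Pnliprp1 (-1.13) and Ctrl (-0.38) were also lower. Zg16 read 32.1 and 108 (1.75) and Cela1 2.80 and 8.26 (1.56), and Ctrb1 (0.12) and Cel (0.021) were slightly higher. The part of acinar cells in the Derl3 and Ero1lb differences was not tested.

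Plasma cells, another cell type rich in ER, were scarcely detected: 7 of the 11 plasma cell genes on the array, among them Tnfrsf17, Irf4 and Cd79a, were not above background on any array. The 4 that were tested were higher in the null mucosa, with a median of 0.63. Their summed scaled signal was 3.79 to 4.79 on the wild-type arrays and 5.09 to 6.53 on the null arrays. Most of each sum was Sdc1, with 3.40 of 3.79 in the wild-type mouse of 5 weeks and 5.51 of 6.25 in the null mouse of 10 weeks. Pou2af1 was well above background on 5 arrays and Igj on 4. Pou2af1 differed by 1.65 ± 0.25, Igj by 0.75 ± 0.15, Sdc1 by 0.52 ± 0.12 and Prdm1 by 0.14 ± 0.12.

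**Figure D5:**
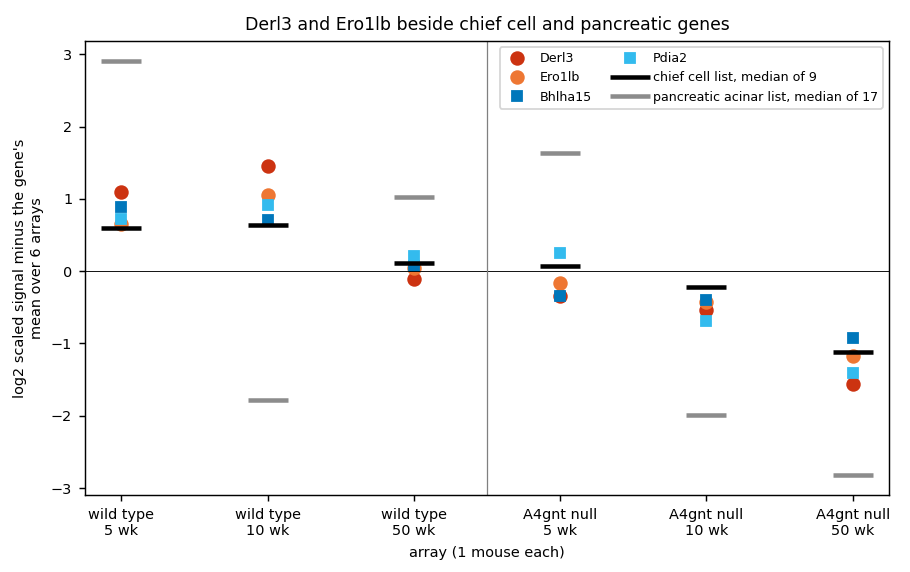
Log2 scaled signal minus the gene's mean over 6 arrays, for Derl3, Ero1lb, Bhlha15 and Pdia2 (points) and for the medians of the chief cell and pancreatic acinar lists (bars), on each array (1 mouse each). Bhlha15 and Pdia2 belong to the chief cell list. The points and the bars of both lists are lowest on the null array of 50 weeks, and the pancreatic bar is highest in the wild-type mouse of 5 weeks (2.90) and low on both 10-week arrays.

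Other lists placed the samples as gastric mucosa and differed between the genotypes as well. Parietal cell genes were lower for 8 of 8, with a median of -1.14 and summed scaled signals of 494 to 760 on the wild-type and 220 to 634 on the null arrays, led by Slc26a7 (-1.75 ± 0.37), Hrh2 (-1.61 ± 0.19), Atp4a (-1.33 ± 0.33) and Kcnj15 (-1.26 ± 0.16). Most of each sum was Atp4b, with 622 of 760 in the wild-type mouse of 5 weeks. Hrh2 was well above background on only 4 arrays, and read 0.021 and 0.0232 in the null mice of 10 and 50 weeks. Gland mucous genes were higher for 6 of 7, with a median of 0.92 and sums of 434 to 990 and 1134 to 1752, led by Gkn3 (1.85 ± 0.18), Aqp5 (1.77 ± 0.37), Cd44 (1.75 ± 0.15) and Muc6 (0.92 ± 0.11). Most of each sum was Tff2, with 376 of 434 in the wild-type mouse of 5 weeks. Surface mucous genes had a median of -0.13 and sums of 2626 to 3197 and 2269 to 3220, mostly Tff1 and Gkn2. Averaged over the ages, dividing cell genes were higher for 6 of 6 (median 1.37), fibroblast genes for 7 of 7 (0.62) and enteroendocrine genes lower for 7 of 7 (-0.65). The sign held at all 3 ages for 6 of the dividing cell genes, 5 of the fibroblast genes and 3 of the enteroendocrine genes. At 5 weeks 4 of the 7 enteroendocrine genes were higher in the null mouse. Smooth muscle genes had medians of 2.36, 0.51 and -2.60 at 5, 10 and 50 weeks. The part of these cells in the ER gene differences was not tested.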

How the data were processed

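RNA was labelled with Cy3, per the labels' protocols, and each spot's fluorescence intensity was deposited by the authors as Agilent Feature Extraction 10.7.1.1 wrote it (per the file headers, background-subtracted and detrended). A second deposited table holds log2 values and equals the log2 processed signal plus a constant per array (-7.88 to -8.54) for 100% of probes within 0.001. How the constant was chosen is unknown, and the medians of its columns were -3.56 to -3.89. It was used as an alternative.

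Outlier spots (98 to 144 per array) and controls were dropped, replicate spots averaged, and log2 signals lowered by the array's 75th percentile. Of 39429 probes 30 were left out, and the probe with the highest mean signal stood for its gene. Testing required a signal well above background on 3 or more arrays (17895 genes). limma 3.58.1 in R 4.3.3 fitted genotype with age as a factor, the age contrast, and genotype by log2 age, with Benjamini-Hochberg adjustment over all genes, and was tested on simulated data. With 1 mouse per group and age, the error comes from how the 3 pairs differ, with 2 residual degrees of freedom. The members and gene lists were chosen with earlier results of these data known. Named members were Hspa5, Xbp1, the regulators, and those with the largest differences by genotype (10 with a constant sign), age (5) or range between ages (4), and all others were counted or given by value. Of the other pathway lists and the chief, parietal, gland mucous and plasma cell lists, the 4 with the largest differences were named. The 2 chief cell genes that were higher were named as well, and so were genes that gave much of a summed signal. Of the pancreatic list, the 10 genes well above background on all 6 arrays were given at 10 weeks instead. The remaining lists were given as counts, medians or sums. Probe coordinates are of mm9 per the file headers, their exon or UTR was not analysed here, and neither were protein sequences. Alternatives covered scaling, background correction, filters, probes, variance, age and each pair left out.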

Additional observations from a re-analysis of the deposited data

How the results depend on the processing

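Among the values of single members under the alternatives, 23 changed sign, 509 kept their sign and side of the threshold, and 31 of the 41 members kept their sign in every setting. The error of each difference rests on 3 pairs of mice with 2 residual degrees of freedom and on the variance that limma shared over all genes. The lowest signals called well above background were 10.1 to 11.6 units, below which signals have no order. Derl3 alone passed the test in any setting, at -1.44 (limma adjusted p = 0.0334) with normexp background correction, where 1 member, 97 genes higher and 92 lower were called. A variance trend called 28 genes higher and 13 lower, quantile normalization 1 lower, and leaving out age as the replicate block 4 higher and 2 lower. No other alternative called a gene for genotype, and none called a gene in the age trend. The count of members higher at an unadjusted p under 0.05 (6) was 3 with quantile normalization, spike-in scaling, no filter and no block, 10 with median scaling, and 1 to 3 with a pair left out. The count lower (5) was 8 with quantile normalization and 3 to 6 with a pair left out. Genes called for age (2) numbered 8 with spike-in scaling, 13 with normexp, 5 with a variance trend, and 0 with no filter, with all 6 arrays above background or without the 10-week pair.

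Median scaling, which moved the median of all genes from -0.025 to 0.10, gave medians of 0.38 for disulfide formation (quantile 0.14), -0.20 for ERAD, 0.25 for further folding genes, 0.27 for further translocation genes, 0.26 for ER to Golgi transport, and 0.35 for the members' age difference. The further folding genes had 0.053 with the mean of all probes and 0.054 to 0.14 with a pair left out. At single ages, the members at least 1.5-fold higher were 2 with quantile normalization at 5 weeks, 4 with median and 1 with spike-in scaling at 10 weeks, and 3 with median scaling at 50 weeks. Those 1.5-fold lower were 1 with normexp at 5 weeks and 7 with spike-in scaling at 50 weeks.

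Signs turned for 10 members near 0, and the cause was not tested. With quantile normalization these were Ern2 (0.034), Hsp90b1 (-0.017), Creld2 (-0.024) and Sec61a1 (-0.043). With median scaling they were Ern2 (0.12), Hyou1 (0.030), Dnajc3 (0.087) and Spcs2 (0.11). With normexp they were Dnajc3 (0.023) and Spcs2 (0.025), and with the authors' table Ern2 (0.024) and Spcs2 (0.012). With a pair left out the values ran from -0.15 to 0.081 for Ern2, -0.076 to 0.48 for Hspa5, -0.22 to 0.024 for Hyou1, -0.17 to 0.070 for Dnajc3, -0.069 to 0.19 for Sdf2l1, -0.25 to 0.43 for Creld2, -0.050 to 0.30 for Ssr2 and -0.12 to 0.039 for Spcs2.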

Other observations

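Genes of transport between the ER and the Golgi, the step that follows folding, were higher in the null mucosa for 10 of 12, with a median of 0.14, and 7 of them at every age, where 26.1% of all genes were. The median was 0.054 without the 5-week pair, and 0 of the 12 passed the limma test, with 1 higher at an unadjusted p under 0.05 (11.0% of all genes). Kdelr3 and Kdelr2, receptors that return ER residents from the Golgi, differed by 0.47 ± 0.24 and 0.21 ± 0.12. Tmed2, a cargo receptor of transport vesicles, read 23.5, 26.2 and 28.6 in wild-type mice of 5, 10 and 50 weeks and 33.4, 34.1 and 33.8 in null mice. Its groups did not overlap, and the difference was 0.38 ± 0.12 (limma adjusted p = 0.190). Copb2, a subunit of the COPI coat, differed by 0.21 ± 0.11.

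The mean profile of the 41 members over the 6 arrays was most like that of Rab13 (Pearson r = 0.99), F2 (0.98), Fam18b (0.97), Rptor (0.97) and Zfp422 (0.97), out of 17895 genes and over 6 arrays that share slides by genotype. Single members followed that mean unevenly, from r = -0.39 for Pdia3 to 0.89 for Derl1.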
